A study of Mus musculus with 6 samples.

Results

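Transcripts of the semaphorin, ephrin, Slit and netrin guidance families were measured by sequencing RNA of MC3T3-E1, an osteoblastic line established from mouse. The members are the rows of the deposited table whose gene symbol names a semaphorin, plexin, neuropilin, ephrin, Eph receptor, Slit, Robo, netrin or Unc5 receptor. This name rule matched 73 of 43346 rows. Of these, 68 rows belong to 12 ligand and receptor families, and 5 were matched by name only: Unc50, Unc5cl and the antisense rows Plxna4os1, Plxna4os2 and Plxna4os3. The rule goes by name, though the families were picked with earlier results of these data known. The 3 libraries labelled Rorβ-CRISPR (KO) came from MC3T3-E1 cells carrying a CRISPR edit of Rorb, a gene for a retinoid-related orphan nuclear receptor. The 3 control libraries came from the MC3T3 control line. Cells of both lines had been held in osteoblast differentiation medium for 2 days. The labels do not say how many edited clones were used or whether each replicate had its own culture. The p-values then measure the spread among these 6 libraries only, which may be technical.

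Guidance ligands and receptors were named for steering growing axons, but most tissues use them for cell contact, migration and spacing. Semaphorins are secreted or membrane-bound and signal through plexins, with neuropilins as co-receptors for most of the secreted class. Ephrins stay on the cell surface and signal in both directions across a contact: A ephrins are held by a lipid anchor and B ephrins span the membrane. Slits bind Robo receptors, and netrins bind DCC, neogenin and the Unc5 receptors. In bone, osteoblast-derived Sema3a is known to restrain osteoclasts and favour osteoblasts, Sema4d from osteoclasts acts on Plxnb1 of osteoblasts, and ephrin-B2 and EphB4 pass signals between osteoclasts and osteoblasts.

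Rorb itself went against the label. It had 69, 78 and 111 reads in the libraries labelled Rorβ-CRISPR, against 1, 3 and 0 reads in the control libraries. Summed and scaled for depth, that is a ratio of 58.8 (exact 95% interval 22.7 to 217, counting error only). Every direction below is therefore between libraries as labelled. Reads in genes ranged from 34662707 to 42255967 in the Rorβ-CRISPR libraries and from 40772380 to 42603315 in the control libraries. All 10 osteoblast markers examined passed the filter in these cells, 5 higher and 5 lower. Of 8 endothelial markers 4 had no reads, among them Cdh5 and Kdr, and Vwf alone passed the filter, called higher at 0.78 (log2). Of 8 macrophage and osteoclast rows 3 had no reads, Acp5 and Calcr included. Another 3 passed the filter, of which 2 were called lower and 1 was not called. Of 10 neuronal markers 2 had none (Rbfox3, Snap25), while Tubb3 averaged 32.3 ± 3.29 in the Rorβ-CRISPR libraries and 6.12 ± 0.677 in control, and Map2 18.8 ± 0.201 in the Rorβ-CRISPR libraries and 40.4 ± 3.47 in control (SD, n = 3 each). Of 7 glial markers 2 passed the filter, and S100b had the higher level of them at 7.34 ± 0.609 in the Rorβ-CRISPR libraries and 4.95 ± 0.260 in control. Both of these glial markers were called higher, with log2 fold changes of 0.48 and 1.04. Summed scaled values over the osteoblast list were 42897 to 44249 in the Rorβ-CRISPR libraries and 72186 to 74659 in control, and over the neuronal list 48.4 to 55.0 in the Rorβ-CRISPR libraries and 44.2 to 50.6 in control. The osteoblast sum is weighted to its highest member, Col1a1, with a mean of 28200 over all libraries. Of the 10 osteoblast markers, 3 were called higher and 1 lower with a log2 fold change of at least 1 in size. The endothelial list summed to 2.84 to 3.58 in the Rorβ-CRISPR libraries and 1.11 to 1.82 in control, the macrophage and osteoclast list, mostly Ctsk, to 97.4 to 104.8 in the Rorβ-CRISPR libraries and 183 to 195 in control, and the glial list to 11.6 to 12.05 in the Rorβ-CRISPR libraries and 6.55 to 6.98 in control. The part of these lists in the results was not tested. In RNA from whole cultures, fewer cells of a type and less RNA per cell cannot be told apart.

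Values are the authors' scaled values, in CPM of an effective library size set by trimmed means (TMM). Fold changes are Rorβ-CRISPR over control as differences of log2(value + 1), in which low genes show less than their full change. They come with the standard error and the Benjamini-Hochberg adjusted p of limma-trend over all tested rows. A row was tested where at least 3 libraries had a value of at least 1, and called where the adjusted p was at most 0.05. Of the 68 family members, 44 passed the filter, and 12 rose, 23 fell and 9 were not called. That is 79.5% of tested members called, where 66.2% of all 13498 tested rows were called (32.9% higher and 33.3% lower). With values scaled by library size only, which puts the median of all tested rows at 0.21 instead of 0.00, 17 members were higher and 14 lower. After subtracting each chromosome's median shift, 14 were higher and 22 lower. Of the 44, 4 rose and 7 fell with a log2 fold change of at least 1 in size, where 4.18% of all tested rows did so (1.45% higher and 2.73% lower). The median size of the log2 fold change was 0.50 for the members and 0.22 for all tested rows. Among ligands 5 of 25 tested rose and 15 fell, and among receptors 7 of 19 rose and 8 fell. With library size only, 8 ligands were higher and 8 lower, and 9 receptors were higher and 6 lower. The excess of falling ligands thus depended on the scaling. After chromosome subtraction the counts were 5 and 14 for ligands and 9 and 8 for receptors. The members Efnb2, Ntn4, Sema3g and Sema5a averaged under 1 in the Rorβ-CRISPR libraries and passed the filter through the control libraries, so that they had to differ. All 4 are ligands, and they are part of the 15 ligands that fell and of the share called. Efnb2, Sema3g and Sema5a are also among the 7 that fell by at least 1. No receptor passed through 1 group only, so the counts of ligands and receptors are not on equal terms. The groups did not overlap in 13 members that were higher and 24 that were lower in the Rorβ-CRISPR libraries, where 33.9% and 34.5% of all tested rows did so. For members on chromosomes 1, 5, 13, 14, 15 and X, whose tested genes had medians of at least 0.1 in size, the value after subtraction is given below.

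**Figure D1:**
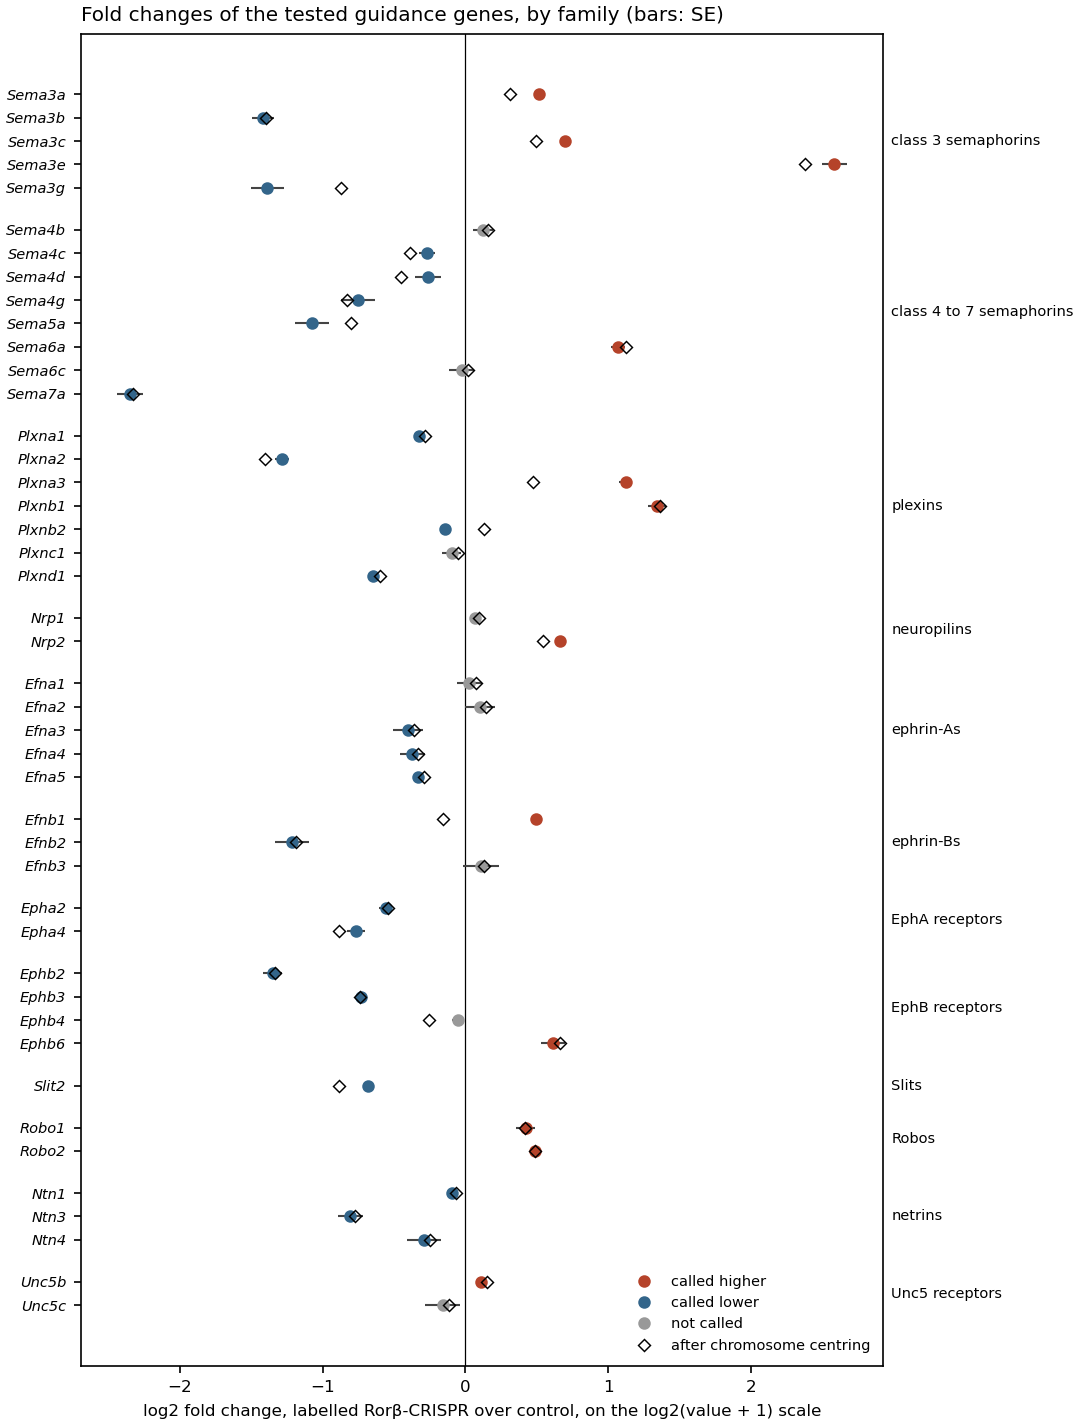
Log2 fold change of each of the 44 tested members, Rorβ-CRISPR over control on the log2(value + 1) scale (x axis), by family, with SE bars. Filled points are coloured by the limma-trend call and open diamonds give the value after subtraction of the chromosome's shift. Sema3e lies farthest right at 2.58 and Sema7a farthest left at -2.35, and among the called genes Efnb1 and Plxnb2 change sign with the subtraction.

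The secreted class 3 semaphorins were split between rising and falling genes. Of 7 rows 5 were tested, of which Sema3a, Sema3c and Sema3e rose and Sema3b and Sema3g fell. Sema3e, whose protein binds plexin D1 without needing a neuropilin, had values of 22.0, 20.5 and 19.6 in the Rorβ-CRISPR libraries, against 2.95, 2.67 and 2.28 in the control libraries. The lowest Rorβ-CRISPR library stood far above the highest control library (log2 fold change 2.58, SE 0.0871, adjusted p = 7.02e-31), and mean values differed 7.87-fold, the largest rise among the tested members. Sema3a, a ligand of neuropilin-1 with A plexins, read 589, 593 and 578 in the Rorβ-CRISPR libraries against 413, 416 and 401 in control (log2 fold change 0.52, SE 0.0231, adjusted p = 1.18e-25). Sema3c, which binds both neuropilins, was at 140.0, 149.7 and 129.7 in the Rorβ-CRISPR libraries and 82.4, 86.8 and 87.5 in control (log2 fold change 0.70, SE 0.0387, adjusted p = 6.85e-17). For these 3 genes no Rorβ-CRISPR library overlapped a control library. Sema3a, Sema3c and Sema3e lie on chromosome 5, where the median log2 fold change of tested genes was 0.21. After subtraction of that shift their log2 fold changes were 0.31, 0.49 and 2.38. Sema3d, on the same chromosome and under the filter, had 11, 10 and 4 reads in the Rorβ-CRISPR libraries against 4, 6 and 2 reads in control.

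Sema3b fell to 6.04, 7.25 and 5.85 in the Rorβ-CRISPR libraries, against 18.2, 18.7 and 19.0 in the control libraries (log2 fold change -1.42, SE 0.0780, adjusted p = 5.36e-22). Sema3g, a ligand of neuropilin-2, had 1.08, 0.890 and 0.590 in the Rorβ-CRISPR libraries and 3.87, 3.89 and 3.71 in control (log2 fold change -1.39, SE 0.115, adjusted p = 3.06e-15). Both groups of values were apart in each of these genes. Sema3g lies on chromosome 14, whose tested genes had a median of -0.53, and its log2 fold change after subtraction was -0.88. It passed the filter through the control libraries, so that it had to differ. Sema3f, under the filter, had 13, 19 and 11 reads in the Rorβ-CRISPR libraries against 27, 32 and 24 in control, a read ratio of 0.472 with an exact 95% counting interval of 0.319 to 0.691.

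More of the membrane-bound semaphorins fell than rose, by a margin that depended on the scaling. Of 13 rows of classes 4 to 7, 8 were tested: Sema6a rose, Sema4c, Sema4d, Sema4g, Sema5a and Sema7a fell, and Sema4b and Sema6c were not called. Of all tested rows 32.9% were called higher and 33.3% lower. With library size only, 2 members of these classes were higher and 3 lower, and after chromosome subtraction 2 and 5. Sema7a, a lipid-anchored semaphorin that binds plexin C1 and beta-1 integrins, had 2.17, 2.52 and 2.77 in the Rorβ-CRISPR libraries against 16.8, 16.0 and 17.3 in control. Every Rorβ-CRISPR value lay far under the lowest control value, the ratio of means was 0.149, and the fold change was the lowest of all tested members (log2 fold change -2.35, SE 0.0897, adjusted p = 1.36e-28). Sema5a, which carries thrombospondin repeats, had 0.812, 0.586 and 0.590 in the Rorβ-CRISPR libraries against 2.22, 2.44 and 2.85 in control (log2 fold change -1.07, SE 0.119, adjusted p = 3.21e-11). It is on chromosome 15, with a median of -0.26, and lay at -0.80 after subtraction. Sema5a passed the filter through the control libraries, so that it had to differ. With any 1 control library left out it no longer passed. Sema4g read 1.33, 1.06 and 1.27 in the Rorβ-CRISPR libraries and 2.06, 3.43 and 2.85 in control (log2 fold change -0.75, SE 0.121, adjusted p = 3.96e-07).

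Sema6a, a transmembrane ligand of the plexins A2 and A4, was at 51.2, 55.4 and 47.8 in the Rorβ-CRISPR libraries and 22.9, 24.8 and 24.3 in the control libraries. The groups were well apart, with a ratio of means of 2.14 (log2 fold change 1.07, SE 0.0508, adjusted p = 2.14e-24). Sema4d, the ligand of plexin B1, had 5.44, 5.45 and 5.33 in the Rorβ-CRISPR libraries against 6.01, 6.98 and 7.08 in control (log2 fold change -0.26, SE 0.0920, adjusted p = 0.0116). The groups did not overlap, but the log2 fold change was -0.067, and not called, with library size only, and the call was also lost without control replicate 3, at -0.22. Sema4d lies on chromosome 13, where the median was 0.20, and was at -0.45 after subtraction. Among the remaining tested members Sema4c, on chromosome 1, fell by 0.27 (log2; -0.39 after subtraction of that chromosome's median of 0.12, and -0.050 and not called with library size only), Sema4b lay at 0.12 (95% interval -0.018 to 0.26; called at 0.16 after subtraction and at 0.33 with library size only) and Sema6c at -0.027 (-0.21 to 0.15). Under the filter, Sema4a, Sema4f and Sema6b had 12 reads or fewer in every library, and Sema5b and Sema6d had 0 reads in every library, a count that leaves room for up to 3 reads.

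**Figure D2:**
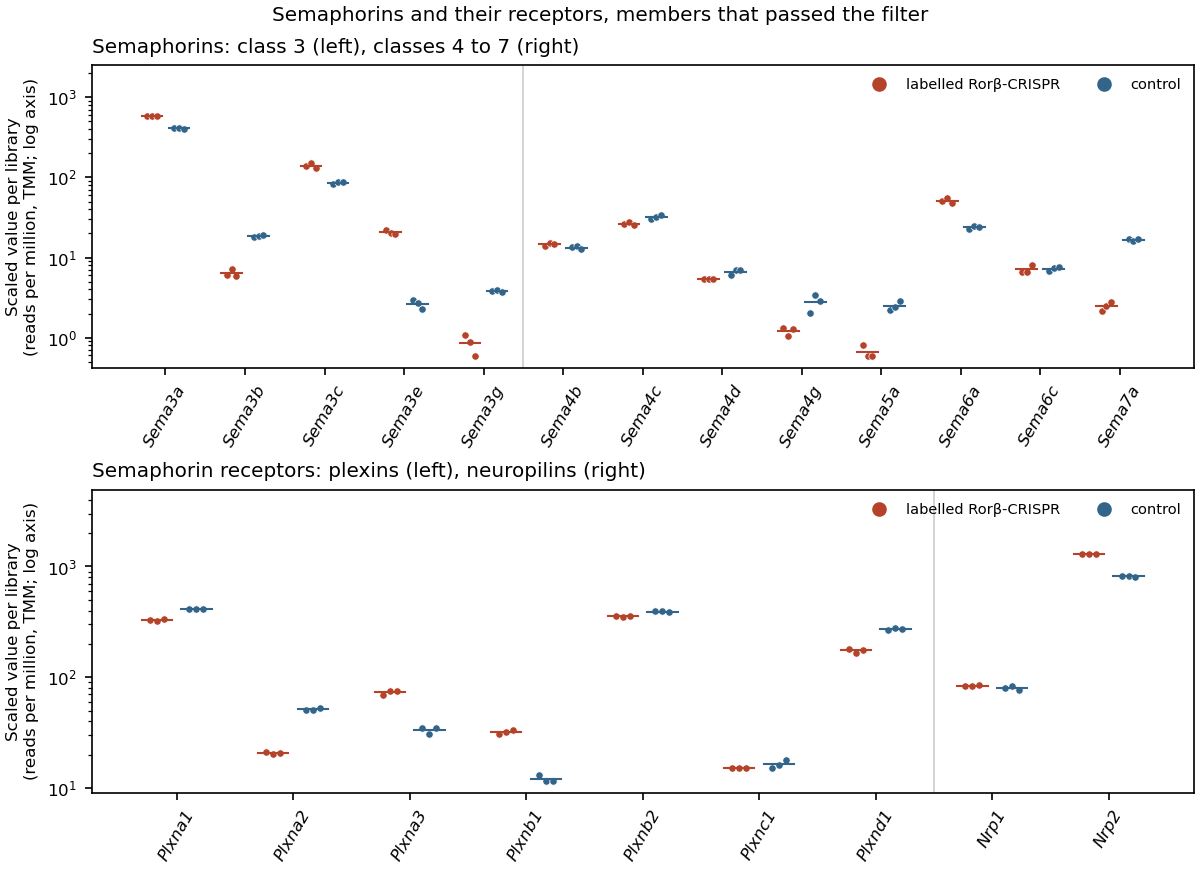
Scaled value in each library (points, log axis, TMM-scaled CPM) of the tested semaphorins (upper panel) and their receptors (lower panel), with a bar at the group mean, Rorβ-CRISPR libraries left of control. The 3 Rorβ-CRISPR points of Sema3e, Sema6a, Plxna3 and Plxnb1 lie above the control points, and those of Sema7a, Sema3b and Plxna2 below them.

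The promoter windows of 3 of these genes are shown because they belong to the tested members with the largest rise (Sema3e) and the largest fall (Sema7a) by log2 fold change, and to Sema5a. Of the 11 called members with a log2 fold change of at least 1 in size, 9 have a window in the table, and among these Sema5a alone held AGGTCA, the core motif of ROR receptors. They come from RefSeq on GRCm38.p6 and run from 250 bases before to 50 after the gene's start, 5′ to 3′ on the gene's strand, at chr5:14025026-14025325 (+), chr9:57939862-57940161 (+) and chr15:32244563-32244862 (+). Capitals mark AGGTCA or its reverse complement.
Sema3e: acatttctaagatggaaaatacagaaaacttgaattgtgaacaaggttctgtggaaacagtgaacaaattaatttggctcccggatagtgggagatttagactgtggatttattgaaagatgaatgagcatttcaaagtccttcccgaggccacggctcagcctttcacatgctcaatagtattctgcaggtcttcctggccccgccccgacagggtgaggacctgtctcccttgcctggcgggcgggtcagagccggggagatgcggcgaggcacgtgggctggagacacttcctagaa
Sema7a: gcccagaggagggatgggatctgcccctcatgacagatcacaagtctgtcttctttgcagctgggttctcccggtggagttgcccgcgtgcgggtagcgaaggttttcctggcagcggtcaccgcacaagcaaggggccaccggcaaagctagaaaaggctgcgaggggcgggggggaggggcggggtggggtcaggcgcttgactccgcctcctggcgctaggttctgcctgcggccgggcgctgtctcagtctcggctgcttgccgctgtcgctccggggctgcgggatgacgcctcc
Sema5a: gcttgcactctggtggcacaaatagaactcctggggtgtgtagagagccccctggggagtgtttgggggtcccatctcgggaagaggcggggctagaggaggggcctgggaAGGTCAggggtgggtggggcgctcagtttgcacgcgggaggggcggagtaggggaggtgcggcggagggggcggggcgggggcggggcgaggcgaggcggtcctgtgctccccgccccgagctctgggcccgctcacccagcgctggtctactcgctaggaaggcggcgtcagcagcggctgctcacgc
The windows hold 11 CpG dinucleotides in Sema3e, 23 in Sema7a and 23 in Sema5a, with a median of 7 over all windows. AGGTCA, read on both strands, is in 1 of the 3, and starts 139 bases before the gene's start in Sema5a. Of 75 windows of 59 family members in the table, 11 (14.7%) held it, as did 16.3% of all 32851 windows. It was in 0 of 13 windows of members that rose and in 6 of 25 windows of members that fell, namely Epha2, Ntn4, Plxnb2, Plxnd1, Sema4d and Sema5a. The windows of the uncalled Nrp1 and Sema4b and of the untested Ntn5, Robo4 and Sema6b also held it. The counts in members that rose and members that fell were not tested against each other. A longer motif that ends in AGGTCA was in 0 of the 75 family windows, that of Sema5a included. Of all 32851 windows 0.219% held this longer motif, and at that rate 75 windows are too few to tell the family from other genes. A match of letters is a description and not a binding site.

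The plexins, the receptors for semaphorins, changed in both directions. Of 9 rows 7 were tested, of which Plxna3 and Plxnb1 rose, Plxna1, Plxna2, Plxnb2 and Plxnd1 fell and Plxnc1 was not called. Plxnb1, the receptor of Sema4d, had 30.7, 32.3 and 33.0 in the Rorβ-CRISPR libraries, against 13.2, 11.4 and 11.5 in the control libraries. All Rorβ-CRISPR values exceeded 2 times every control value (log2 fold change 1.34, SE 0.0622, adjusted p = 5.03e-25). Plxna3 read 69.3, 75.3 and 75.5 in the Rorβ-CRISPR libraries against 34.5, 30.5 and 34.6 in control, again without overlap (log2 fold change 1.12, SE 0.0462, adjusted p = 1.03e-25). It is on chromosome X, where tested genes had a median of 0.65, and its log2 fold change after subtraction was 0.47. Plxna2, a receptor for Sema6a and, with neuropilins, for class 3 semaphorins, had 21.0, 20.2 and 20.5 in the Rorβ-CRISPR libraries and 51.1, 50.6 and 52.6 in control (log2 fold change -1.28, SE 0.0486, adjusted p = 9.79e-29). It lies on chromosome 1, where the median was 0.12, and was at -1.40 after subtraction.

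Plxnd1, the direct receptor of Sema3e, had 181, 165 and 177 in the Rorβ-CRISPR libraries against 268, 280.0 and 272 in the control libraries (log2 fold change -0.65, SE 0.0293, adjusted p = 1.24e-24). Sema3e and Plxnd1 thus moved in opposite directions. Plxna1 fell less, with 327, 323 and 333 in the Rorβ-CRISPR libraries against 409.9, 413 and 412 in control (log2 fold change -0.33, SE 0.0239, adjusted p = 2.80e-17). With library size only it lay at -0.10 and was not called. In the mouse annotation 10.7% of its exon bases are shared with an antisense gene, and the strand setting of the counting is not given in the sources used here. Plxnb2, a receptor for Sema4c, read 358, 347 and 359 in the Rorβ-CRISPR libraries and 397, 393 and 386 in control (log2 fold change -0.14, SE 0.0242, adjusted p = 9.79e-07). Its direction was not stable: on chromosome 15, it lay at 0.13 after chromosome subtraction and at 0.082 with library size only. Plxnc1, the receptor of Sema7a, lay at -0.095 (95% interval -0.23 to 0.039) and was not called. Plxnb3, under the filter, had 10, 4 and 6 reads in the Rorβ-CRISPR libraries against 8, 0 and 6 in control, and Plxna4 had 0 reads in all 6 libraries.

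Neuropilin-2 rose, whereas the call of neuropilin-1 depended on the scaling. Nrp2, a co-receptor for Sema3f, Sema3c and Sema3g, had 1285, 1296 and 1284 in the Rorβ-CRISPR libraries, against 818, 822 and 802 in the control libraries (log2 fold change 0.66, SE 0.0201, adjusted p = 6.27e-33). Its replicates were close to each other and the groups far apart. On chromosome 1, it lay at 0.54 after subtraction. Nrp1, the co-receptor of Sema3a, read 83.5, 83.5 and 85.4 in the Rorβ-CRISPR libraries against 80.7, 83.6 and 76.6 in control, with overlapping groups, and its log2 fold change was 0.068 with a 95% interval of -0.0053 to 0.14, not called. It was called higher after chromosome subtraction, at 0.098, with library size only, at 0.29, and without control replicate 2, at 0.097. Per kilobase of exon, a scale on which genes can be compared, the level of Nrp2 was 124 in the Rorβ-CRISPR libraries and 78.4 in control, and that of Nrp1 23.4 in the Rorβ-CRISPR libraries and 22.3 in control. Nrp2 therefore made up 83.9% to 84.3% of the neuropilin level in the Rorβ-CRISPR libraries and 77.3% to 78.4% in control, with no overlap.

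The make-up of the semaphorin families per kilobase of exon showed which changes weighed most. Sema3a was 74.5% to 76.6% of the class 3 level in the Rorβ-CRISPR libraries and 74.2% to 75.6% in control, so its share overlapped between groups while the class 3 sum was 121 to 128 in the Rorβ-CRISPR libraries against 86.7 to 89.1 in control. Sema3e made up 2.34% to 2.56% of that level in the Rorβ-CRISPR libraries, against 0.383% to 0.490% in control, and Sema3b 1.30% to 1.53% in the Rorβ-CRISPR libraries against 5.60% to 5.91% in control. In classes 4 to 7, Sema6a held 32.3% to 35.4% of the level in the Rorβ-CRISPR libraries and 14.1% to 14.7% in control, while Sema7a held 3.18% to 4.05% in the Rorβ-CRISPR libraries and 20.5% to 22.8% in control. The sum of these classes was 20.7 to 21.9 in the Rorβ-CRISPR libraries against 22.3 to 24.2 in control. Among plexins, Plxnb2, Plxna1 and Plxnd1 had the highest levels per kilobase in both groups, at 54.0, 36.3 and 25.3 in the Rorβ-CRISPR libraries and 59.7, 45.6 and 39.6 in control. The share of Plxna3 was 7.42% to 8.27% in the Rorβ-CRISPR libraries against 2.77% to 3.17% in control, and that of Plxnb1 2.64% to 2.84% in the Rorβ-CRISPR libraries against 0.835% to 0.969% in control. Exon lengths are those of all exons joined in GENCODE M21 on GRCm38, which may differ from the transcripts these cells make.

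**Figure D3:**
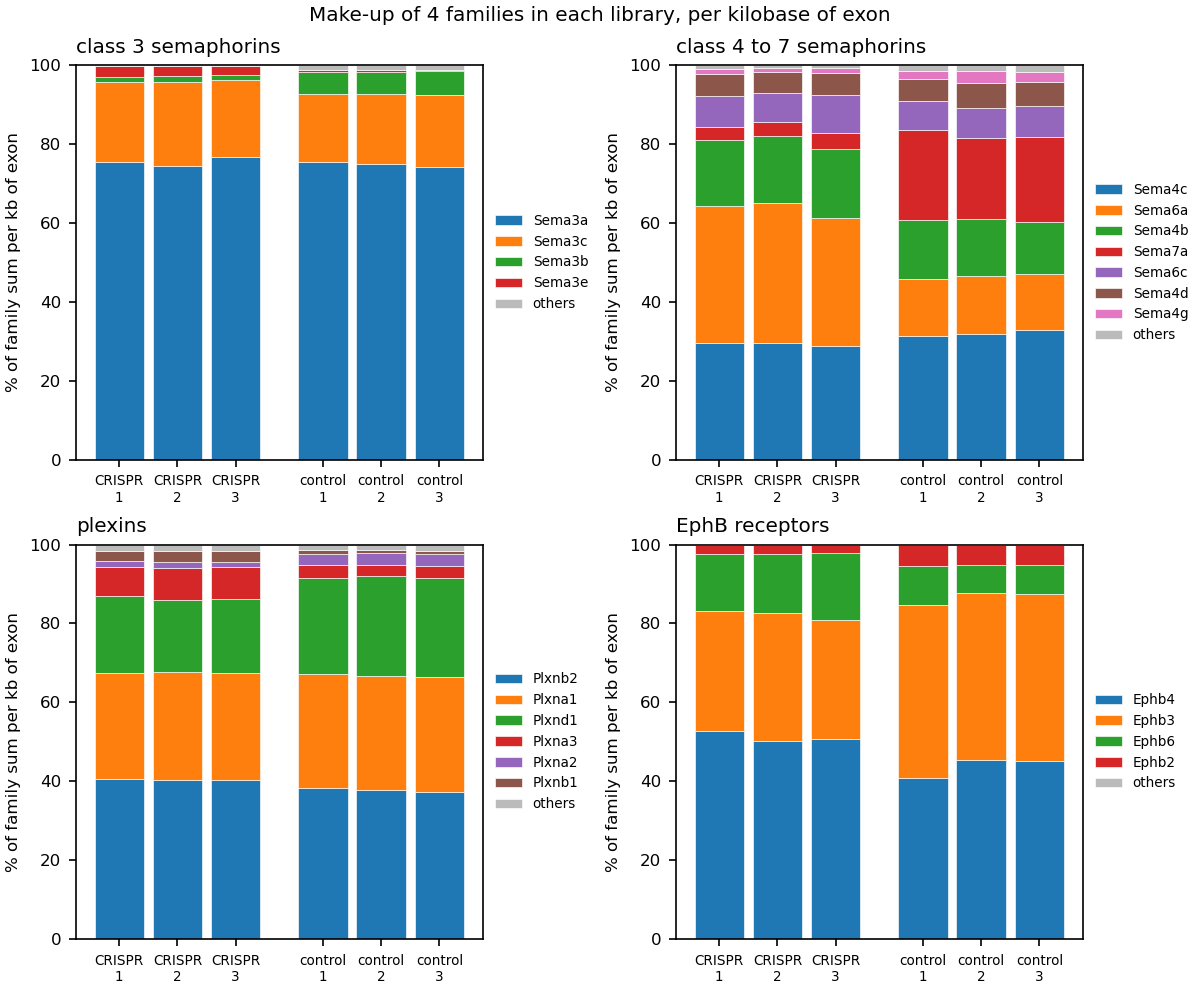
Share of each member (stacked colours, y axis in % of the family's summed value per kilobase of exon) in each library for 4 families, with the Rorβ-CRISPR libraries left of control. Members under 2% in every library are pooled as others. Sema3a holds about the same share in both groups, whereas Sema6a widens and Sema7a narrows in the Rorβ-CRISPR libraries.

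Ephrins fell or were not called, apart from Efnb1. Of the 5 ephrin-A rows, all tested, Efna3, Efna4 and Efna5 fell and Efna1 and Efna2 were not called. Efna5, the ephrin-A of highest level per kilobase, had 49.96, 49.4 and 48.1 in the Rorβ-CRISPR libraries, against 60.9, 61.4 and 63.7 in the control libraries (log2 fold change -0.33, SE 0.0404, adjusted p = 5.57e-10). The groups did not overlap, though with library size only the value was -0.11 and no call remained. Efna3 and Efna4 lay at -0.40 and -0.37, and likewise lost their calls with library size only. In these genes 14.6% and 10.5% of exon bases are shared with antisense genes. Efna2, known from mouse osteoclasts as a partner of EphA2, read 4.33, 3.36 and 4.70 in the Rorβ-CRISPR libraries and 3.71, 3.66 and 3.91 in control with overlap (0.10, 95% interval -0.11 to 0.31). Efna1 lay at 0.028 (95% interval -0.14 to 0.20). With library size only both were called higher, at 0.28 for Efna2 and 0.23 for Efna1.

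Ephrin-B2 had the largest log2 fold change in size among the 8 tested ephrins. Its gene passed the filter through the control libraries, so that it had to differ. Efnb2, the partner of EphB4 in exchanges between osteoclasts and osteoblasts, had 0.866, 1.1503 and 0.817 in the Rorβ-CRISPR libraries against 3.19, 3.09 and 4.33 in control. That corresponds to 32, 53 and 36 reads in the Rorβ-CRISPR libraries against 118, 119 and 175 in control, a read ratio of 0.268 with an exact 95% counting interval of 0.217 to 0.329, and no library of either group came near the other (log2 fold change -1.22, SE 0.118, adjusted p = 5.60e-13). Efnb1, whose protein reverse-signals in bone cells, had 107, 102 and 107 in the Rorβ-CRISPR libraries and 73.0, 76.4 and 74.6 in control (log2 fold change 0.49, SE 0.0346, adjusted p = 7.43e-18). It lies on chromosome X, and its log2 fold change was -0.16 after subtraction of that chromosome's median, so the rise was smaller than that of the typical X gene. Efnb3 was low and not called, at 0.11 (95% interval -0.15 to 0.36). Per kilobase of exon Efnb1 made up 97.8% to 98.1% of the ephrin-B level in the Rorβ-CRISPR libraries and 94.96% to 95.3% in control.

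Of the Eph receptors, the tyrosine kinases that bind ephrins, 6 of 14 rows were tested, and 4 fell, 1 rose and 1 was not called. Ephb2 had 8.58, 8.75 and 8.21 in the Rorβ-CRISPR libraries, against 23.7, 23.2 and 22.8 in the control libraries (log2 fold change -1.35, SE 0.0677, adjusted p = 1.23e-23). The other EphB receptor to fall was Ephb3, at 59.8, 62.3 and 58.6 in the Rorβ-CRISPR libraries against 103, 101 and 98.5 in control (log2 fold change -0.73, SE 0.0364, adjusted p = 7.44e-24). In both genes the replicates of a group lay within a narrow band and the bands were apart. Ephb6, whose kinase domain is inactive, read 18.8, 18.9 and 21.5 in the Rorβ-CRISPR libraries against 15.2, 11.3 and 11.5 in control and was the only Eph receptor that rose (log2 fold change 0.61, SE 0.0838, adjusted p = 4.11e-07). Ephb4, the receptor of ephrin-B2 on osteoblasts, read 78.9, 73.6 and 74.9 in the Rorβ-CRISPR libraries and 72.6, 82.8 and 80.6 in control, with overlapping groups. Its log2 fold change was -0.051 with a 95% interval of -0.13 to 0.030. Ephb4 is on chromosome 5. It was called lower after subtraction, at -0.26, and without control replicate 1, at -0.11, and called higher with library size only, at 0.17, so its direction turned with the scaling. Per kilobase, Ephb4 held 50.2% to 52.6% of the EphB level in the Rorβ-CRISPR libraries and 40.7% to 45.3% in control, and Ephb3 30.3% to 32.5% in the Rorβ-CRISPR libraries and 42.2% to 44.1% in control. The order of these 2 receptors was thus clear in the Rorβ-CRISPR libraries (17.3 for Ephb4 and 10.5 for Ephb3 per kilobase), whereas their control levels, 18.0 ± 1.22 and 17.7 ± 0.386 (SD, n = 3), did not differ beyond their spread.

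Both tested EphA receptors fell. Epha2 had 36.3, 34.7 and 37.4 in the Rorβ-CRISPR libraries and 55.6, 52.5 and 52.9 in control (log2 fold change -0.56, SE 0.0445, adjusted p = 7.45e-16). Epha4, which binds ephrins of both classes, had 13.8, 15.1 and 14.4 in the Rorβ-CRISPR libraries and 26.6, 26.1 and 23.1 in control (log2 fold change -0.76, SE 0.0630, adjusted p = 2.29e-15). Neither gene's groups overlapped. Epha4 is on chromosome 1 and lay at -0.89 after subtraction. Of the other 8 Eph rows, Epha1 had 32, 34 and 38 reads in the Rorβ-CRISPR libraries against 26, 45 and 30 in control, Epha8 had 16 reads or fewer in every library and Epha10, Epha5 and Ephb1 had 3 or fewer. Epha3, Epha6 and Epha7 had 0 reads in all 6 libraries.

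**Figure D4:**
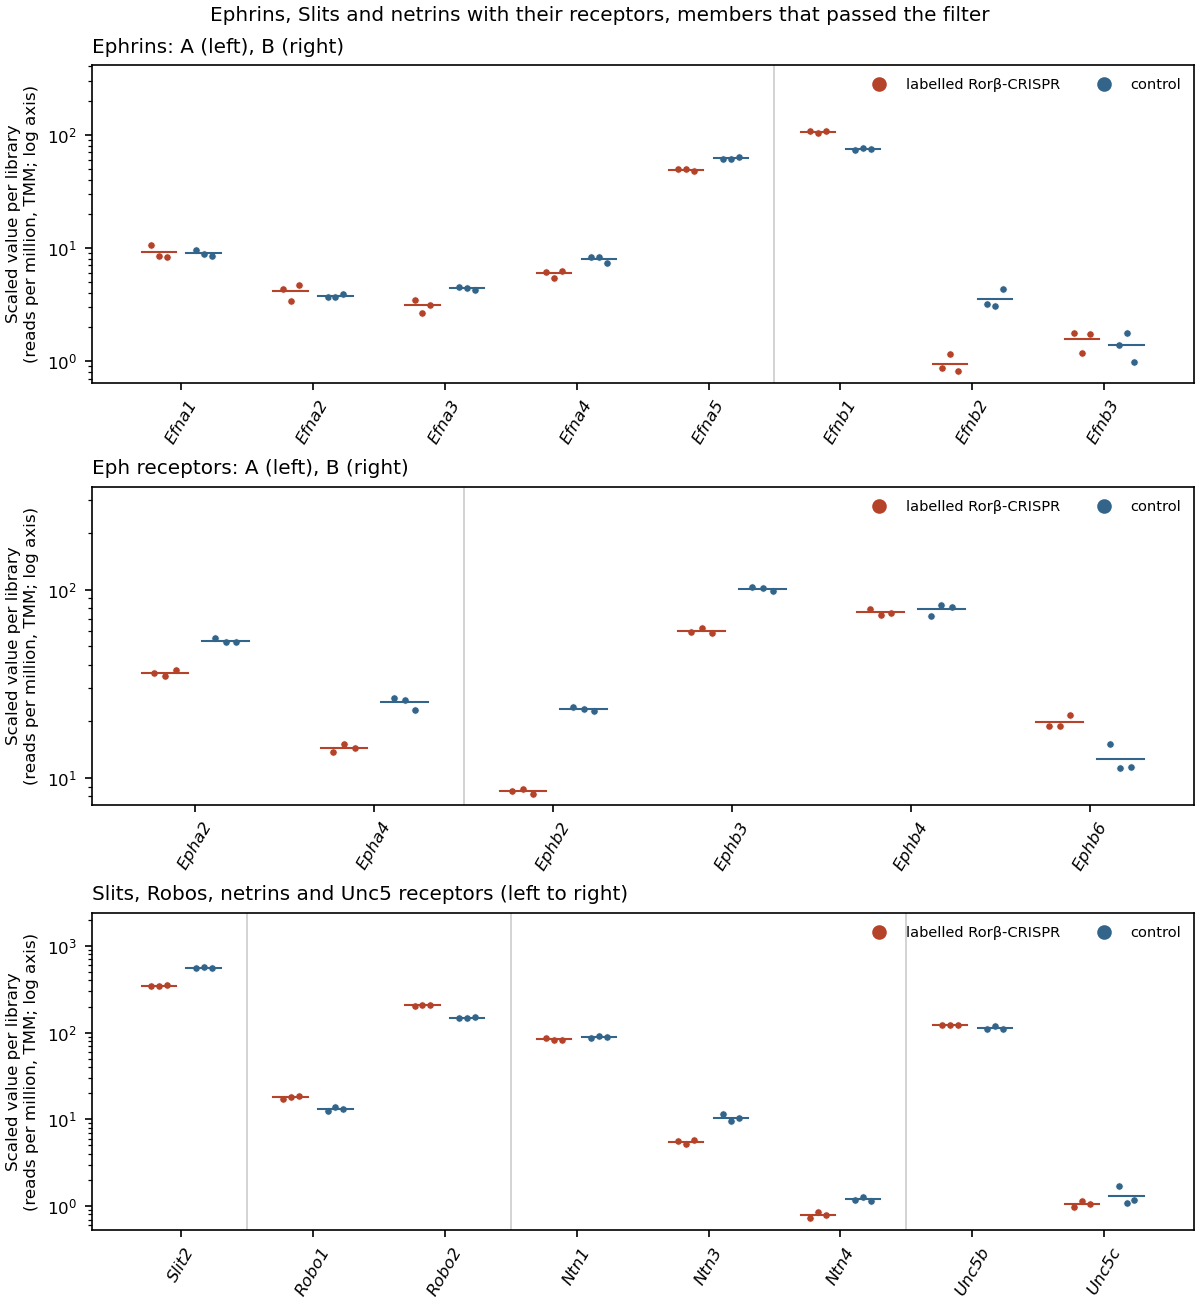
Scaled value in each library (points, log axis, TMM-scaled CPM) of the tested ephrins (top), Eph receptors (middle) and Slits, Robos, netrins and Unc5 receptors (bottom), with a bar at the group mean, Rorβ-CRISPR libraries left of control. Efnb2, Ephb2 and Ephb3 lie lower in the Rorβ-CRISPR libraries, Ephb4 overlaps, and Slit2 lies lower while Robo1 and Robo2 lie higher.

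Slit2 fell while both tested Robo receptors rose. Slit2, the main Slit in these cells, had 345, 345 and 357 in the Rorβ-CRISPR libraries, against 556, 578 and 550.0 in the control libraries (log2 fold change -0.68, SE 0.0242, adjusted p = 5.23e-30). Robo2, its receptor of higher level, read 203, 209.8 and 211 in the Rorβ-CRISPR libraries against 146, 147 and 149.9 in control (log2 fold change 0.49, SE 0.0284, adjusted p = 4.60e-21), and Robo1 17.3, 18.0 and 18.6 in the Rorβ-CRISPR libraries against 12.4, 13.8 and 13.3 in control (log2 fold change 0.42, SE 0.0667, adjusted p = 2.56e-07). None of these 3 genes had overlapping groups. Slit2 lies on chromosome 5, whose genes shifted upward, and was at -0.89 after subtraction. Slit2 held 99.8% to 99.9% of the Slit level per kilobase in every library, and Robo2 90.5% to 90.8% of the Robo level in the Rorβ-CRISPR libraries and 89.9% to 90.9% in control. The Slit sum per kilobase was 34.5 to 35.7 in the Rorβ-CRISPR libraries against 54.9 to 57.7 in control, and the Robo sum 25.0 to 26.1 in the Rorβ-CRISPR libraries against 18.1 to 18.6 in control. Slit1, under the filter, had 15, 19 and 8 reads in the Rorβ-CRISPR libraries against 25, 12 and 10 in control. Robo3 had 6 reads or fewer in every library, and Slit3, a Slit studied in bone, and Robo4, the endothelial Robo, had 0 reads in all 6.

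The 3 tested netrins fell, of which Ntn3 alone kept its call with library size only and after chromosome subtraction, and Ntn5, which was not tested, had more reads in the Rorβ-CRISPR libraries. Ntn1, whose protein is a ligand of Unc5b and has been studied in bone cells, had 86.3, 82.8 and 82.6 in the Rorβ-CRISPR libraries against 86.8, 92.4 and 89.5 in the control libraries (log2 fold change -0.093, SE 0.0353, adjusted p = 0.0183). The groups lay next to each other without overlapping, and the value was 0.13 with library size only. The call was also lost without control replicate 2, Rorβ-CRISPR replicate 2 or Rorβ-CRISPR replicate 3, at -0.084 to -0.071. Ntn3 had 5.66, 5.21 and 5.78 in the Rorβ-CRISPR libraries and 11.5, 9.63 and 10.3 in control, well apart (log2 fold change -0.81, SE 0.0868, adjusted p = 1.29e-11), and 4.53% of its exon bases are shared with other genes. Ntn4 was low, with 0.731, 0.846 and 0.794 in the Rorβ-CRISPR libraries against 1.16, 1.27 and 1.14 in control (log2 fold change -0.29, SE 0.121, adjusted p = 0.0311), and lost its call without Rorβ-CRISPR replicate 1 or 3, at -0.29 to -0.27. It passed the filter through the control libraries, so that it had to differ. Ntn5, under the filter, had 20, 40 and 48 reads in the Rorβ-CRISPR libraries and 2, 2 and 5 in control, a read ratio of 10.9 with an exact 95% counting interval of 5.56 to 24.6. Of its exon bases 23.4% are shared with the antisense gene Sec1, so these reads cannot be assigned with certainty.

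Unc5b, the only Unc5 receptor of more than low level, read 122, 124 and 121 in the Rorβ-CRISPR libraries against 111, 119 and 109.9 in control (log2 fold change 0.11, SE 0.0329, adjusted p = 0.00318). The highest control library lay just under the lowest Rorβ-CRISPR library. Unc5c was near the filter value, at -0.16 (95% interval -0.41 to 0.088), and Unc5a and Unc5d had 0 reads in all 6 libraries. Unc50, a Golgi protein gene on chromosome 1 matched by name only, rose by 0.27 (log2; 0.15 after subtraction), and the other 4 rows matched by name only had 0 reads.

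Genes that work with these receptors were followed in a list of 69 co-receptors and intracellular partners, which has 70 rows because Mical3 has 2. Of 52 tested rows 14 rose, 29 fell and 9 were not called, 82.7% called where 66.2% of all tested rows were (32.9% higher and 33.3% lower). The median log2 fold change was -0.11 in the list and 0.00 over all tested rows. With library size only 25 were higher and 15 lower, and after chromosome subtraction 11 and 26. Met, the receptor kinase that associates with plexin B1, had 18.0, 18.6 and 16.6 in the Rorβ-CRISPR libraries against 4.63, 3.76 and 4.13 in control (log2 fold change 1.86, SE 0.0835, adjusted p = 1.36e-25). Plxdc2, a plexin-domain membrane protein gene, read 75.8, 76.2 and 77.8 in the Rorβ-CRISPR libraries and 172, 186 and 185 in control (log2 fold change -1.23, SE 0.0329, adjusted p = 2.86e-35). Fyn, a kinase downstream of plexin A and Eph receptors, had 27.0, 31.1 and 27.4 in the Rorβ-CRISPR libraries against 59.6, 61.5 and 58.3 in control (log2 fold change -1.05, SE 0.0481, adjusted p = 6.33e-25). Flrt3, a ligand of Unc5 receptors, fell by 1.01 (log2), and Vav3, an exchange factor recruited by Eph receptors, by 0.98. Vav3 averaged under 1 in the Rorβ-CRISPR libraries and passed the filter through the control libraries, so that it had to differ, and its edgeR log2 fold change was -2.27. Those 5 genes were named because they had the largest changes on the log2(value + 1) scale among the called members of the list. Their groups did not overlap, which that choice favours and which held for 68.4% of all tested rows. By edgeR, Rnd1, a low gene that also passed through the control libraries and was picked after its values were seen, changed more than Fyn and Flrt3, at -1.35 against -1.06 and -1.04. Of the netrin receptors DCC and neogenin, Dcc had 0 reads in all 6 libraries. Neo1, the neogenin gene, had 74.9, 77.0 and 75.1 in the Rorβ-CRISPR libraries against 79.2, 84.8 and 76.9 in control, with overlapping groups (log2 fold change -0.084, SE 0.0374, adjusted p = 0.0454). With library size only it lay at 0.14 and was called higher.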

How the data were processed

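RNA of 3 Rorβ-CRISPR (KO) and 3 control libraries of MC3T3-E1 cells was extracted with Trizol and DNase treatment and made into libraries with the Encore NGS kit, per the labels' protocols. Reads were aligned with TopHat2 2.0.6 to mm9 and counted with HTSeq, per the submitters' processing notes. For the annotation, the counting and strand options and the tool that made the authors' p-values, the sources used here say nothing. The deposited table gives, per gene row, TMM-scaled signal values for each library, group median counts, a fold (ratio of groups), p-values and q-values, per the file headers. No value is taken from the authors' fold or q-value columns for the results.

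One read is worth 0.0217 to 0.0271 in the deposited signal. Dividing by this value gave whole reads for 100% of values within 0.01, and the group medians of these reads equalled the authors' deposited median counts in all 43346 rows. Depth was 34662707 to 42603315 reads in genes per library, and intervals on read ratios cover counting error only. Values were tested as log2(value + 1) with limma-trend with robust moderation (limma 3.58.1, R 4.3.3), on rows reaching a value of 1 in 3 or more libraries, with Benjamini-Hochberg adjustment over 13498 rows and a threshold of 0.05. The procedure was also run on simulated reads in which few genes changed and no chromosome shifted. These data differ in both, so that run is not evidence for the calls made here. Alternatives were edgeR 4.0.16 quasi-likelihood and DESeq2 1.42.0 on the recovered reads, other scalings (library size, DESeq2 size factors, upper quartile), pseudocounts of 0.1 and 0.5, no filter, a filter of 0.5, a threshold of 0.01, a replicate block, subtraction of chromosome medians (RefSeq chromosomes for 12586 of 13498 rows, 93.2%) and leaving out each library. A filter on the mean of all libraries was added after seeing the data. Values per kilobase use GENCODE M21 exon lengths on GRCm38, for genes matched by symbol. Coordinates of mm9 were not converted.

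Values per library are given for called members with a log2 fold change of at least 0.58 in size, the highest member of each family and members with known roles in bone cells, other members by range or fold change, and the 5 most changed called genes of the signalling list. The members and lists were chosen with earlier results of these data known, and lists include genes picked from general knowledge of the pathways.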

Additional observations from a re-analysis of the deposited data

How the results depend on the processing

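The 12 members called higher and 23 called lower were 12 to 13 and 20 to 25 under the other tests, filters, pseudocounts and the threshold of 0.01. Library size only gave 17 and 14 members, 7291 and 1975 of all tested rows in place of 4441 and 4501, and 25 and 15 genes of the signalling list in place of 14 and 29. It also turned Ephb4 to 0.17, Ntn1 to 0.13, Plxnb2 to 0.082, Plxnc1 to 0.12 and Sema6c to 0.17 (log2), and ended the calls of Efna3, Efna4, Efna5, Ntn4, Plxna1, Sema4c and Sema4d. The choice of scaling moved the median of all tested rows from 0.00 to 0.21. The move was not the same in every row on the log2(value + 1) scale. The low gene Ntn4 went from -0.29 to -0.18, and the high gene Nrp2 from 0.66 to 0.89. Subtracting chromosome medians turned Efnb1 to -0.16, Plxnb2 to 0.13 and Sema6c to 0.016, and ended the calls of Ntn1 and Ntn4. DESeq2 also did not call Ntn4. Calls were gained by Efna1, Efna2, Ephb4, Nrp1 and Sema4b with library size only and by Ephb4, Nrp1 and Sema4b after chromosome subtraction. In edgeR, which adds less to low values, the log2 fold changes of Efnb2, Ntn4, Sema3g, Sema4g and Sema5a were -1.89, -0.58, -2.17, -1.19 and -1.93, over 1.5 times those of limma-trend. Leaving out each library in turn gave 4046 to 4240 higher and 4095 to 4310 lower rows, 12 to 13 and 20 to 22 members and 12 to 14 and 24 to 29 list genes. The uncalled Efna1 -0.072 to 0.085, Efnb3 -0.016 to 0.22 and Sema6c -0.11 to 0.019 (log2) changed sign among these. Without control replicate 3 Sema4d was no longer called, and with any 1 control library left out Ntn4 and Sema5a no longer passed the filter. The cause of these changes was not tested.

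Same-numbered libraries correlated at -0.056, 0.17 and 0.13 in their deviations from group means, and differently numbered ones at -0.21 to 0.11. With 3 libraries per group these values cannot decide whether the numbers pair the libraries. With the replicate block 12 members were higher and 23 lower, 4502 and 4551 of all rows, and 14 and 30 of the signalling list. Members under the filter, such as Ntn5 with 2 to 5 control reads, are limited by depth, and a count of 0 allows up to 3 reads, or a value of 0.0651 to 0.0812.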
